A study of Mus musculus with 15 samples.

Results

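The genes described here are the CCN matricellular genes Ccn1 to Ccn5 together with Ankrd1 and Amotl2, 7 genes in all, of which Ccn1, Ccn2, Ankrd1 and Amotl2 are widely used as targets of YAP and TAZ. They were found by symbol among the 56980 genes of the deposited expression table, after its Ensembl identifiers had been matched to the mouse GENCODE M39 annotation, and all 7 were present on 1 row each. The table holds bulk RNA-seq of muscle tissue from DBA/2J-mdx mice, a dystrophin-deficient strain used as a model of Duchenne muscular dystrophy. The mice were given vehicle or dasatinib plus quercetin (D + Q), a drug pair used to remove senescent cells. Tibialis anterior (TA) muscles came from mice treated 2 times per week for 2 months from an age of 3 months and collected at 5 months, with 4 D + Q mice, all labelled male, and 4 vehicle mice, 2 of each sex. Hearts came from mice treated at the same frequency for 4 months from an age of 12 months and collected at 16 months, with 3 D + Q mice, labelled 2 females and 1 male, and 4 vehicle mice, 2 of each sex. Every mouse carried the mdx mutation, so no group shows the level of these genes in healthy muscle, and tissue, age and length of treatment differ together and cannot be told apart.

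CCN proteins are secreted, cysteine-rich proteins that sit in the extracellular matrix and signal through integrins, LRP receptors and heparan sulfate proteoglycans rather than building the matrix themselves. Ccn1 (Cyr61) and Ccn2 (connective tissue growth factor) are rapidly induced by growth factors, stretch and TGF-beta, and Ccn2 is one of the most used markers of fibrosis in muscle and heart. Their promoters are classic targets of YAP and TAZ, coactivators that the Hippo kinases hold in the cytoplasm and that, once nuclear, act through TEAD factors bound to the MCAT element. Ankrd1 (CARP), a titin-associated ankyrin repeat protein of stressed heart and muscle, and Amotl2, a scaffold of the angiomotin family that binds YAP and restrains it, are induced by the same pathway.

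The promoters are shown because the MCAT element, CATTCC on one strand and GGAATG on the other, is the sequence TEAD factors recognise. It was searched on both strands in the 250 bases before the canonical GENCODE M39 start of 6 of the genes in GRCm39. Ccn1 held 1 match and Amotl2 held 2, whereas Ccn3, Ccn4, Ccn5 and Ankrd1 held 0. Of 21631 promoters of the same length, 12.1% held at least 1 match and 0.938% held 2 or more. The full window of Ccn1 follows 5′ to 3′ on the strand of the gene, with the MCAT match in capitals and the last base next to the start.
Ccn1 (GRCm39 chr3:145355739-145355988, minus strand): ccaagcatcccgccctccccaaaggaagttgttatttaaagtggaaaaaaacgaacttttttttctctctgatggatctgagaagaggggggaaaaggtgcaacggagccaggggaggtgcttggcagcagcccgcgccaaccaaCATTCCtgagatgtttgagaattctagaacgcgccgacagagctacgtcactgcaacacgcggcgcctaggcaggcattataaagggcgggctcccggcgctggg
In Ccn1 the match began 105 bases before the start, and the TATAAA box, searched on the strand of the gene, began 27 bases before it. The Amotl2 window overlaps 5′ UTR exons of its other transcripts, so only a stretch of 30 bases around each of its matches is given. For Ankrd1 the RefSeq promoter, which belongs to the earlier build GRCm38.p6 and uses another start, held 2 matches that the GENCODE window did not. The RefSeq promoters of Ccn1 and Amotl2 held 1 match each, so Amotl2 held fewer there than in its GENCODE window. The shares over all promoters are for GENCODE windows only.
Amotl2, 235 bases before the GENCODE start: tcggtgcctgtaGGAATGgagggtgagaac
Amotl2, 135 bases before the GENCODE start: gcagggtggcagGGAATGaatgccgcacgg
Ankrd1, 210 bases before the RefSeq start: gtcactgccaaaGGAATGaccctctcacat
Ankrd1, 123 bases before the RefSeq start: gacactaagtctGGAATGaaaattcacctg
The AP-1 element TGANTCA, held by 6.19% of all promoters on either strand, and the CArG box of SRF, held by 1.41%, were in none of the GENCODE windows of these 6 genes. A match is a string of letters and not a measured binding site.

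Values are in TPM, transcript abundance scaled by length and to a fixed total per library, and can be compared between genes. Read depth cannot be recovered from TPM, so the errors given come from the spread between mice, and counting error within that spread cannot be separated. The labels give 1 library per mouse and do not say more about how the mice were kept. Skeletal and cardiac muscle markers followed the tissue labels, with summed TPM of 7 skeletal genes between 35811 and 44418 in TA and between 1329 and 1782 in heart. In 14 of the 15 libraries the sex-linked genes followed the labelled sex. The library labelled as heart D + Q replicate 3, a male, showed Xist at 47.2 TPM and no Y-linked gene above 0.0279 TPM, so the differences of the 7 genes that use the D + Q hearts are given with and without it, and counts over gene lists with it only. In these bulk samples, fewer cells of a type and less RNA per cell cannot be told apart.

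Ccn1 was the higher of the 2 leading CCN genes in TA and varied widely there. Its TPM was 198, 72.0, 31.4 and 58.0 in D + Q TA (89.8 ± 74.0, SD, n = 4) and 117, 48.1, 75.5 and 53.8 in vehicle TA (73.5 ± 31.0, n = 4). Hearts held less, with 28.2, 33.4 and 35.1 after D + Q (32.2 ± 3.59, n = 3) and 37.2, 44.4, 38.4 and 47.7 after vehicle (41.9 ± 4.96, n = 4). Both the highest and the lowest TA values were of D + Q mice, while every D + Q heart lay below every vehicle heart. Ordered by mean, D + Q TA came first, then vehicle TA, vehicle heart and D + Q heart, and the first 2 groups overlapped. D + Q TA also overlapped the hearts, as its lowest mouse, at 31.4, lay below every vehicle heart and within the range of the D + Q hearts.

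Ccn2 had the reverse tissue order. It reached 88.8, 148, 106 and 66.1 TPM in vehicle hearts (102 ± 34.7, n = 4) and 56.6, 58.8 and 51.3 in D + Q hearts (55.6 ± 3.84, n = 3). In TA it was 77.3, 27.1, 24.2 and 33.8 after D + Q (40.6 ± 24.8, n = 4) and 26.4, 26.3, 64.1 and 53.1 after vehicle (42.5 ± 19.2, n = 4). The 3 D + Q hearts were close together and all below the lowest vehicle heart, whereas the TA groups overlapped almost entirely. D + Q TA replicate 1 was the highest TA mouse for Ccn1 and for Ccn2.

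Ccn3 (Nov), a CCN member often described as opposing Ccn2, was the third CCN gene in TA. Its TPM was 13.4, 7.45, 5.47 and 9.30 in D + Q TA, 6.84, 12.6, 6.99 and 10.6 in vehicle TA, 1.99, 2.12 and 1.32 in D + Q hearts and 2.65, 4.11, 2.89 and 2.20 in vehicle hearts. All TA mice lay above all hearts, and the D + Q hearts lay below the vehicle hearts, the closest pair being 2.12 and 2.20.

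Ccn4 (Wisp1), a target of Wnt signalling made by fibroblasts and osteoblasts, was the lowest of the 7 genes in every group. It stood at 3.06, 1.14, 0.980 and 1.70 TPM in D + Q TA, 1.18, 2.90, 2.07 and 2.14 in vehicle TA, 1.50, 0.775 and 0.982 in D + Q hearts and 0.851, 1.50, 1.57 and 1.24 in vehicle hearts. Neighbouring groups overlapped throughout.

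Ccn5 (Wisp2), which lacks the C-terminal module of the other CCN proteins and is often described as antifibrotic, was level in TA and uneven in heart. TA held 2.50, 3.23, 3.22 and 1.95 TPM after D + Q and 3.65, 2.32, 3.03 and 2.41 after vehicle. The vehicle hearts held 7.86, 12.9, 3.52 and 6.62 TPM (7.73 ± 3.91, n = 4), and the D + Q hearts 2.62, 2.95 and 1.16 (2.25 ± 0.953, n = 3). The vehicle hearts were therefore the one group that stood above the others, although its replicate 3 lay within the range of TA.

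Ankrd1 was by far the most abundant of the 7 in heart. It stood at 1368, 1416, 977 and 1046 TPM in vehicle hearts, where its mean of 1202 ± 222 placed it 52nd of 15979 genes with a mean of at least 0.5 TPM, and at 983, 945 and 957 TPM in D + Q hearts (961 ± 19.2, n = 3). TA held 539, 44.1, 55.0 and 192 TPM after D + Q (208 ± 231, n = 4) and 44.5, 41.4, 209 and 97.7 after vehicle (98.2 ± 78.4, n = 4). Among the TA mice its values spanned more than any other member's, again with D + Q replicate 1 highest. D + Q and vehicle overlapped in both tissues.

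Amotl2 varied little between the mice of a group. Its TPM was 10.7, 10.6, 11.7 and 15.3 in D + Q TA, 10.8, 10.7, 13.0 and 11.7 in vehicle TA, 31.8, 29.1 and 32.6 in D + Q hearts and 23.7, 30.8, 25.4 and 24.6 in vehicle hearts. The tissues did not overlap, and the treatment groups overlapped in each.

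**Figure D1:**
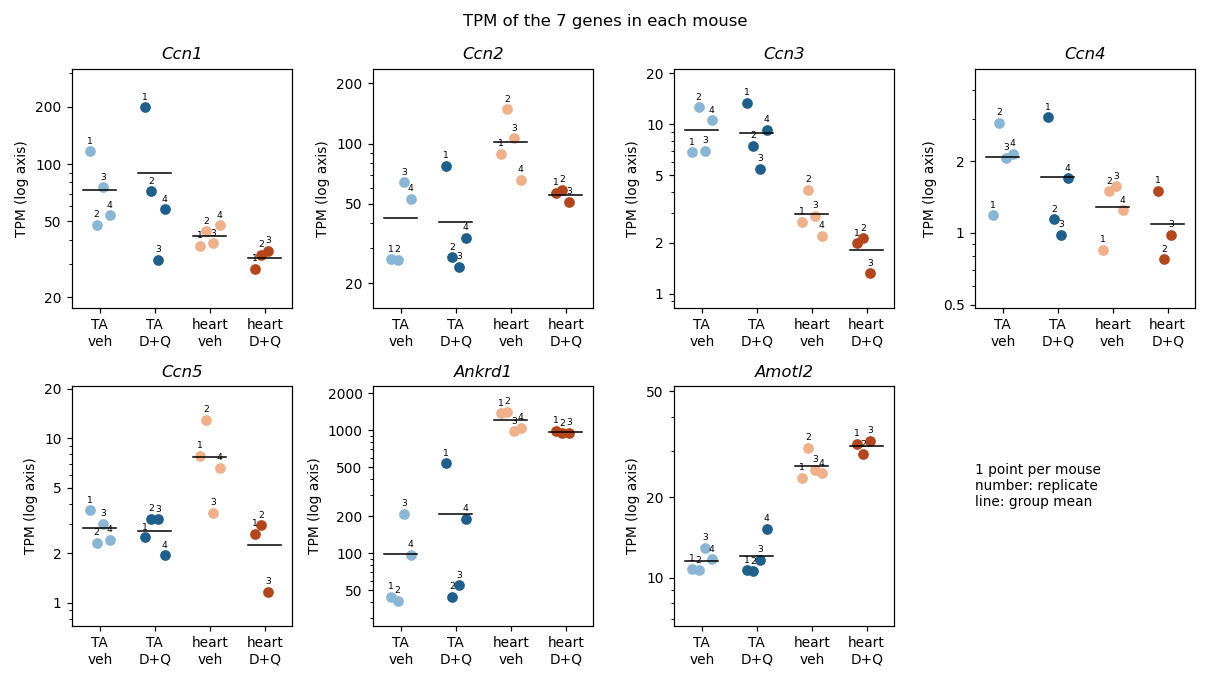
TPM of each gene (vertical axes, logarithmic, 1 panel per gene) in TA and heart after vehicle or D + Q, with 1 numbered point per mouse and a line at the group mean. The D + Q hearts lie below all vehicle hearts for Ccn1, Ccn2, Ccn3 and Ccn5, and TA lies below heart for Ankrd1 and Amotl2 and above it for Ccn3.

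In hearts, D + Q was compared with vehicle to ask whether the CCN genes and the other YAP targets stood lower after senolytic treatment. None of the 7 passed the test, which was limma on log2(TPM + 0.5) with labelled sex in the model, a Benjamini-Hochberg adjusted p under 0.05 over 16132 genes and an absolute log2 fold change above 0.5. Of all genes tested, 0.316% were called. The study, with a test on read counts at the same thresholds, named Ccn2 among its top downregulated heart genes. Its test called more genes in heart and in TA than the fit on TPM, and it could not be run on TPM. By values alone, 4 of the 7 (Ccn1, Ccn2, Ccn3 and Ccn5) had every D + Q heart below every vehicle heart, against 5.57% of all genes, and the median log2 fold change of the 7 was -0.36 against -0.0025 over all genes. The 7 were chosen with earlier results of these data known, so this contrast is a description and not a test.

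Ccn5 had the largest difference in these hearts, a log2 fold change of -1.58 (SE 0.42, 95% confidence interval -2.56 to -0.61, adjusted p = 0.131 in limma). For Ccn2 it was -0.90 (SE 0.17, interval -1.30 to -0.50, adjusted p = 0.0934), or 0.537 times the vehicle level. Ccn3 stood at -0.65 (SE 0.14, adjusted p = 0.109) and Ccn1 at -0.36 (SE 0.11, adjusted p = 0.173). Ankrd1 gave -0.30 (SE 0.14, adjusted p = 0.331), Ccn4 gave -0.23 (SE 0.20, adjusted p = 0.605) and Amotl2, the one gene of the 7 with a positive value, gave 0.24 (SE 0.099, adjusted p = 0.268). Taken singly, the intervals of Ccn1, Ccn2, Ccn3, Ccn5 and, on the positive side, Amotl2 left out 0, and none held after adjustment over all genes.

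One library decided the only call that any setting gave. Without heart vehicle replicate 3, the vehicle heart with the least Ccn5, the log2 fold change of Ccn5 was -2.12 with an adjusted p of 0.0230 in limma, and Ccn5 then passed. Without D + Q replicate 3, whose sex label and sex-linked genes disagree, Ccn5 was at -1.16, Ccn2 at -1.11, Ccn3 at -0.63 and Ccn1 at -0.42, with adjusted p-values of 0.442, 0.207, 0.328 and 0.370. Ccn4 was then at -0.35, Ankrd1 at -0.29 and Amotl2 at 0.12.

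**Figure D2:**
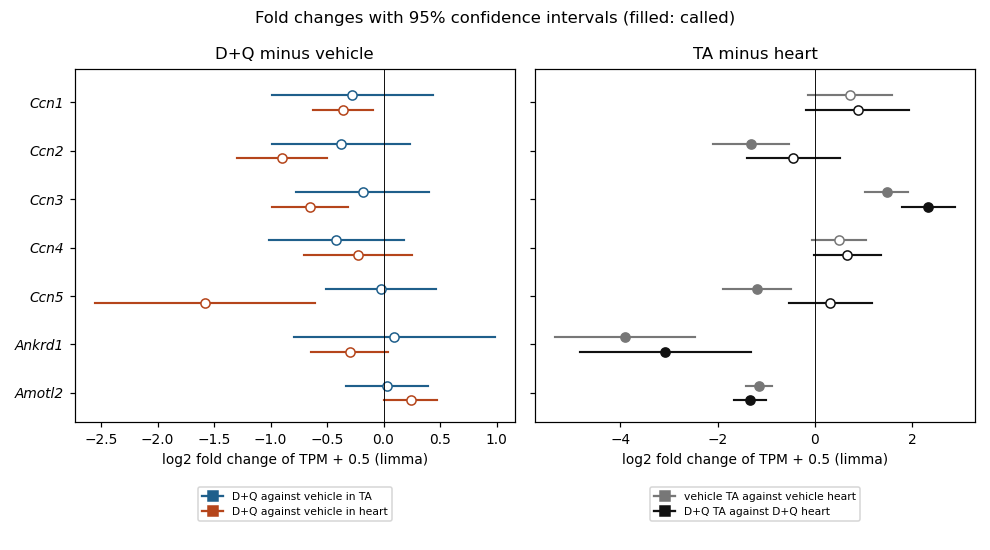
Log2 fold change of TPM + 0.5 (horizontal axes) for each gene, as D + Q minus vehicle on the left and TA minus heart on the right, with 95% confidence intervals as bars and filled points for genes that passed the test. No point is filled on the left, and Ccn3, Ankrd1 and Amotl2 are filled in both tissue comparisons on the right.

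Markers of atrial muscle and of fibroblasts were also lower in the D + Q hearts by their values. Summed TPM of 5 atrial muscle genes was 382 to 427 in D + Q hearts and 864, 4260, 2221 and 1104 in vehicle hearts. Of the 5, 3 (Myl7, Myl4 and Sln) were called lower, against 0.211% of all genes. Summed TPM of 7 fibroblast genes was 483 to 569 in D + Q hearts and 609 to 864 in vehicle hearts, with 0 of the 7 called, all 7 negative and 3 fully below. Of all genes, 50.5% were negative and 5.57% lay fully below. Vehicle replicate 2, the mouse with the most Ccn2, Ccn3 and Ccn5, was also the highest for both marker sums. By the mean log2 level of the atrial genes, vehicle replicate 3, with the least Ccn5 of the vehicle hearts, was higher (7.46 against 7.05 in replicate 2). The 7 ventricular and pan-cardiac genes summed to 28801 to 30372 TPM in D + Q hearts and 22910 to 25398 in vehicle hearts, the opposite order.

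The mean log2 level of the atrial genes was then put in the model in place of sex. The log2 fold changes became -0.058 for Ccn2, -0.15 for Ccn1, 0.040 for Ccn3 and 1.04 for Ccn4. Ccn5 stood at -2.10, Ankrd1 at -0.96 and Amotl2 at 0.58, and the median of all genes moved from -0.0025 to 0.31. That atrial level and D + Q were almost the same variable in these hearts (r = -0.96 over 7 hearts), so atrial content and treatment cannot be told apart. The part of fibroblast RNA in the result was not tested. The clock gene Bmal1 also set these hearts apart, at 1.35 to 3.15 TPM in vehicle and 8.55 to 10.2 in D + Q hearts. Of all genes, 9.63% lay fully above in D + Q hearts. Whether the hearts were collected at different times of day was not tested.

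**Figure D3:**
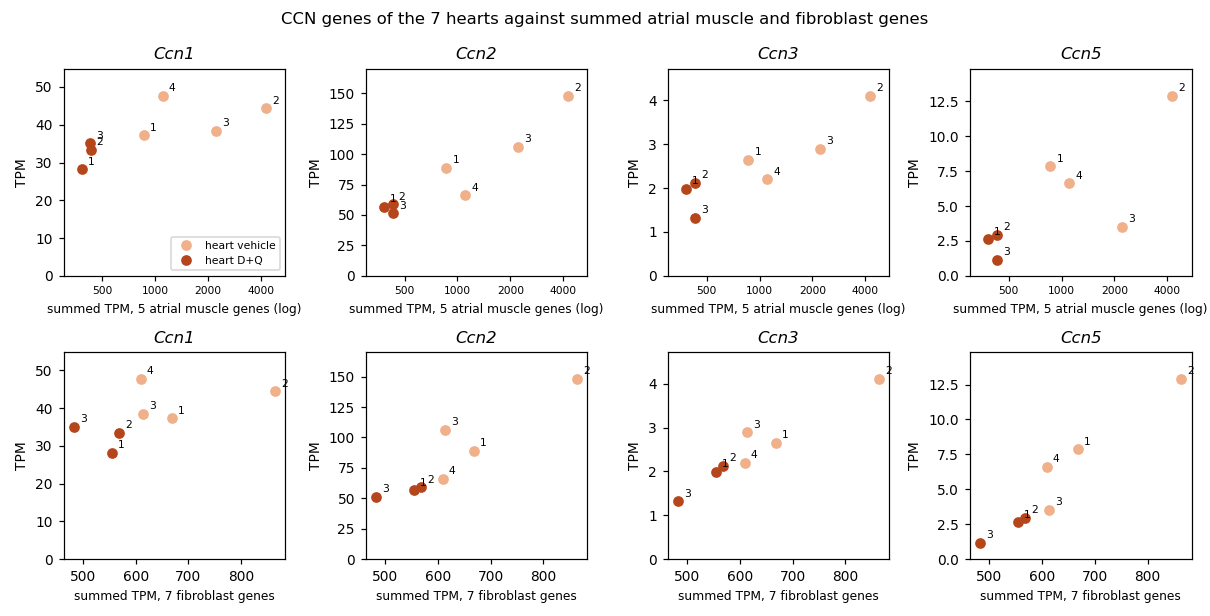
TPM of Ccn1, Ccn2, Ccn3 and Ccn5 (vertical axes) in the 7 hearts against the summed TPM of 5 atrial muscle genes (upper row, logarithmic horizontal axis) and of 7 fibroblast genes (lower row), with 1 numbered point per mouse. All D + Q hearts lie at the left of all vehicle hearts on both marker sums, and vehicle replicate 2 lies at the far right.

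In TA, the same question gave no call. None of the 7 passed, as for all other genes (0 of 16298, 0% in either direction). At an unadjusted p under 0.05 in limma and an absolute log2 fold change above 0.5, 80 genes were higher and 280 lower. The groups overlapped for all 7 members, while 1.52% of all genes did not overlap. The model held 1 surrogate variable, a hidden factor estimated from all genes. The log2 fold changes were -0.28 for Ccn1 (SE 0.32), -0.37 for Ccn2 (SE 0.28), -0.18 for Ccn3 (SE 0.27), -0.42 for Ccn4 (SE 0.27), -0.023 for Ccn5 (SE 0.22), 0.095 for Ankrd1 (SE 0.40) and 0.032 for Amotl2 (SE 0.16), each with an adjusted p of 0.999 in limma.

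These intervals were wide for the genes that vary between mice. For Ccn2 the 95% interval ran from -0.98 to 0.24 and for Ankrd1 from -0.79 to 0.98, so changes of those sizes were not excluded, while for Amotl2 it ran from -0.33 to 0.39. Without the surrogate variable, Ccn1 stood at 0.049 and Ankrd1 at 0.68, still with adjusted p-values of 0.999. Among the labelled males only, Ccn3 was at 0.27 and Ankrd1 at 0.38.

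Next, the effect of D + Q in TA was set against that in heart with an interaction term over all 15 libraries. Again 0 of the 7 were called, against 0.0616% of 17868 genes. For Ccn5 the difference of effects was 1.51 on the log2 scale (SE 0.51, adjusted p = 0.912 in limma), with Ccn2 at 0.87 and Ccn3 at 0.86 (SE 0.58 and 0.33). Ankrd1 gave 0.83, Ccn4 0.17, Ccn1 0.16 and Amotl2 -0.19. Without heart D + Q replicate 3, Ccn5 was no longer apart from Ccn2 and Ccn3, with Ccn2 at 0.93, Ccn3 at 0.90, Ccn5 at 0.89, Ankrd1 at 0.67, Ccn4 at 0.35, Ccn1 at 0.032 and Amotl2 at -0.11. Hence the lower Ccn2, Ccn3 and Ccn5 of D + Q hearts was not shown to be particular to heart.

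More of the 7 genes passed between tissues than between treatments. Between vehicle TA and vehicle heart, 5 of the 7 were called, where 36.7% of all genes were called (22.5% higher in TA and 14.2% lower). The groups did not overlap for 5 of the 7 (Ccn1, Ccn2, Ccn3, Ankrd1 and Amotl2), against 40.9% of all genes. Ankrd1 was lower in TA, with a log2 fold change of -3.91 (SE 0.67, adjusted p = 0.000271 in limma), or 0.0665 times the heart level. Ccn2 was lower at -1.31 (SE 0.37, adjusted p = 0.00967), Ccn5 at -1.18 (SE 0.32, adjusted p = 0.00864), with groups that overlapped, and Amotl2 at -1.14 (SE 0.13, adjusted p = 4.91e-06). Ccn3 was the only one higher in TA, at 1.48 (SE 0.21, adjusted p = 5.03e-05), or 2.78 times the heart level.

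Ccn1 and Ccn4 did not pass. Ccn1 stood at 0.72 (SE 0.40, adjusted p = 0.166) although every vehicle TA lay above every vehicle heart. All 15 libraries shared 1 estimate of the spread, and without D + Q TA replicate 1 the same difference had an adjusted p of 0.0290 and passed. Ccn4 stood at 0.50 (SE 0.26, adjusted p = 0.138).

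Between D + Q TA and D + Q heart, 3 of the 7 were called, where 34.7% of all genes were (21.4% higher in TA and 13.3% lower). The same 3 were the ones without overlap, against 46.7% of all genes. Ccn3 was higher in TA at 2.34 (SE 0.26, adjusted p = 5.77e-06), and Ankrd1 and Amotl2 were lower at -3.08 (SE 0.82, adjusted p = 0.00857) and -1.33 (SE 0.16, adjusted p = 1.08e-05). These 3 also passed without heart D + Q replicate 3, with adjusted p-values of 0.000194, 0.0456 and 0.000605. Ccn2 was at -0.44 (SE 0.45, adjusted p = 0.476), Ccn5 at 0.32 (SE 0.40, adjusted p = 0.563) and -0.29 without that heart, Ccn4 at 0.67 (SE 0.32) and Ccn1 at 0.88 (SE 0.49, adjusted p = 0.178). Ccn1 passed without D + Q TA replicate 3, at 1.28 with an adjusted p of 0.0251. The 2 tissue comparisons are between different mice but share that estimate of the spread.

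TPM is a share of each library, and the all-gene medians of the 2 tissue comparisons were 0.16 above 0. Rescaling by median-of-ratios factors brought them to about 0 and moved the calls from 4027 higher and 2532 lower to 2912 and 3333 between the vehicle groups, and from 3829 and 2372 to 2947 and 3280 between the D + Q groups. The number of the 7 that passed stayed at 5 and 3 under that rescaling, and no member's tissue difference turned its sign.

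The 2 tissues differed in which CCN gene held the largest share of the family's transcripts. Of the summed TPM of Ccn1 to Ccn5, Ccn1 took 55.3% ± 13.8 (SD, n = 4) in vehicle TA and 28.0% ± 7.48 (n = 4) in vehicle heart, and Ccn2 took 32.8% ± 12.5 and 64.5% ± 7.80. Every TA mouse, at 44.1% or more, gave Ccn1 a larger share than any heart did. After D + Q the Ccn1 share was 58.9% ± 8.85 in TA and 34.7% ± 4.04 in heart. Ccn3 added 7.85% in vehicle TA and 1.89% in vehicle heart. The sum itself was 124 to 211 TPM in vehicle hearts and 89.9 to 98.1 in D + Q hearts, against 92.3 to 155 in vehicle TA and 65.3 to 294 in D + Q TA.

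**Figure D4:**
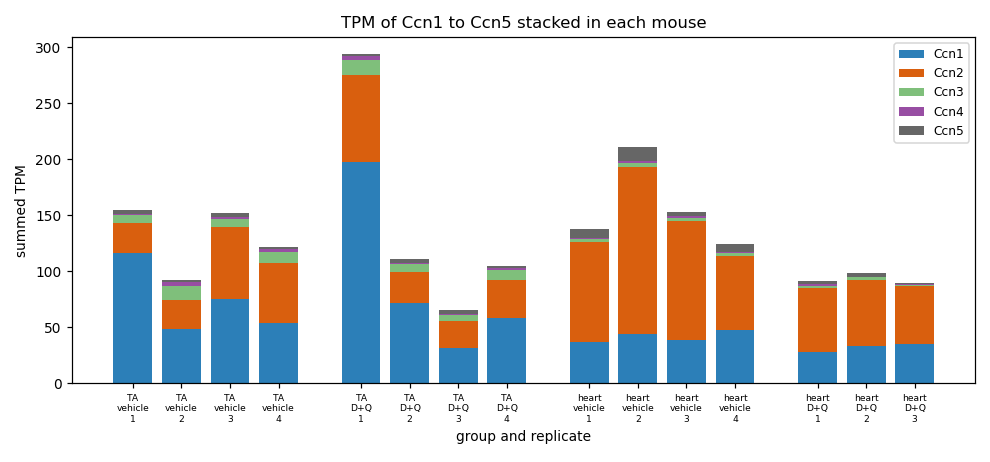
Summed TPM (vertical axis) of Ccn1 to Ccn5 stacked for each mouse, by group and replicate number (horizontal axis). Ccn1 is the largest segment in every TA mouse, by little in vehicle replicate 4, and Ccn2 in every heart, and the 3 D + Q hearts have the 3 lowest sums among hearts.

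Within a tissue the members did not vary as a block. Pearson's r of log2(TPM + 0.5) over the 15 libraries, after each tissue's mean was taken away, was 0.75 for Ccn2 and Ankrd1, 0.72 for Ccn3 and Ccn4, 0.65 for Ccn2 and Ccn3 and 0.51 for Ccn1 and Ccn2. Amotl2 gave -0.29 with Ccn1 and -0.41 with Ccn5. In the 7 hearts alone Ccn2 and Ccn3 gave 0.95, and Ccn3 and Ccn5 0.87, while in the 8 TA mice Ccn3 and Ccn5 gave -0.72. These are descriptions over libraries that share tissue, treatment groups and handling.

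Among 13546 genes, those most like Ccn1 by the same measure were the immediate early genes Ier2 (0.94), Egr1 (0.93) and Fosb (0.93). Egr1 stood at 448, 72.0, 9.01 and 36.0 TPM in D + Q TA and 147, 18.3, 121 and 33.0 in vehicle TA, with replicate 1 of each group the highest, as for Ccn1. For Ccn2 the leading genes were Nkd2 (0.91), a Dishevelled-binding Wnt regulator, Prelp (0.85), a proteoglycan of the matrix, and Batf (0.84). For Ccn3 they were Nsd3 (0.94), the collagen gene Col5a2 (0.94) and Postn (0.93), which encodes periostin of activated fibroblasts.

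Ccn4 was most like Plod2 (0.91), a collagen lysyl hydroxylase, with Hsbp1l1 (0.91) and Zc3h7a (0.90). Ccn5 was most like Aldh1a1 (0.88), a retinaldehyde dehydrogenase, Tent5c (0.87) and Cnn1 (0.87), the smooth muscle calponin. Aldh1a1 stood at 14.5, 18.1, 10.3 and 13.3 TPM in vehicle hearts and 8.51, 9.35 and 6.26 in D + Q hearts, in the same order of mice as Ccn5. Ankrd1 went with Gnl3 (0.96), a nucleolar protein of growing cells, Ifi202b (0.95) and Loxl4 (0.95), a lysyl oxidase-like enzyme, and Amotl2 with Yae1d1 (0.84), Rpl36al (0.83) and Mars1 (0.80). Within single tissues some of these correlations were lower. In the 7 hearts alone Ankrd1 gave 0.61 with Gnl3 and 0.30 with Ifi202b, Ccn1 gave 0.44 with Fosb, and in the 8 TA mice alone the matches of Ccn5 gave 0.44 to 0.58.

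Other genes of a YAP target signature, 18 in all, were counted beside the members. In heart 16 were tested, 0 were called and 14 had a negative log2 fold change after D + Q (50.5% of all genes did). Every D + Q heart lay below every vehicle heart for 5 of the 16, against 5.57% of all genes. The median of the 16 was -0.17, against -0.0025 over all genes. The leading ones by p were Ccdc80, a matrix protein, at -0.86 (27.9 ± 3.08 against 50.7 ± 8.12 TPM, adjusted p = 0.0688 in limma), Myof, a membrane repair ferlin, at -0.57, the ligand Tgfb2 at -0.71 and tissue factor, F3, at -0.44. In TA 17 were tested, 0 were called, 14 were negative (66.4% of all genes were) and 0 were without overlap, with a median of -0.11 against -0.072 over all genes.

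Between vehicle TA and vehicle heart, 3 of the 17 tested genes of the signature were called higher in TA and 5 lower, against 22.5% and 14.2% of all genes. Myof (1.25) and Tgfb2 (0.77) stood with Ccn3 on the TA side, and Nt5e (-2.05), the ectonucleotidase CD73, and Dock5 (-1.22) stood with Ankrd1 and Amotl2 on the heart side. Of the 18 signature promoters, 3 held an MCAT match.

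**Figure D5:**
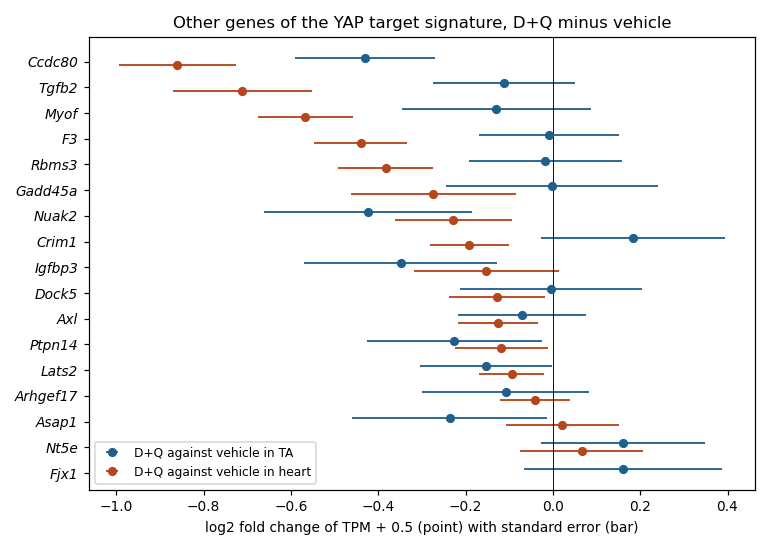
Log2 fold change of TPM + 0.5 after D + Q (horizontal axis) for the tested genes of the YAP target signature other than the 7 members, in TA and in heart, with standard errors as bars. In heart 14 of 16 points lie below 0 and in TA 14 of 17, and no gene passed the test in either tissue.

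The upstream pathway showed no call after D + Q in either tissue. Of the 9 effectors (Yap1, Wwtr1, the TEAD and the VGLL genes), Tead1 had every D + Q heart above every vehicle heart (51.7 ± 1.85 against 45.9 ± 1.47 TPM, log2 fold change 0.16, adjusted p = 0.195 in limma), as did 9.63% of all genes. Tead3 (-0.21) and Wwtr1 (-0.13), which encodes TAZ, had every D + Q heart below, as did 5.57% of all genes. Of the 12 tested genes of the Hippo kinase module, 8 were negative in heart and 11 in TA, against 50.5% and 66.4% of all genes, with medians of -0.059 and -0.086. Between tissues the effectors differed more. Vgll2, a skeletal muscle TEAD cofactor, was higher in TA by 5.27, Tead4 by 2.29 and Tead1 by 1.35, and Tead2 was lower at -0.52. The kinase scaffold Sav1 was higher in TA by 1.09 and Wwc2 lower at -0.82.

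The paralogs of Ankrd1 and Amotl2 had the opposite tissue order to the members. Ankrd2 (79.1 ± 30.8 TPM in vehicle TA and 0.157 ± 0.0380 in vehicle heart), Ankrd23 (1237 ± 218 and 225 ± 35.6), Amot (61.7 ± 11.5 and 5.74 ± 0.557) and Amotl1 (112 ± 18.9 and 21.5 ± 0.852) were all called higher in TA, by 6.81, 2.45, 3.30 and 2.33 on the log2 scale. The remaining CCN gene, Ccn6, did not pass the filter on low values. Of the 3 Ankrd genes, Ankrd23 had the highest TPM in TA and Ankrd1 in heart.

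The receptors and partners of CCN proteins were also higher in TA where they were called. Of 12 tested, 6 were called higher and 0 lower between the vehicle groups, against 22.5% and 14.2% of all genes, led by the integrin subunits Itgb2 (2.16), Itgav (0.91) and Itgb1 (0.51) and by Lrp6 (0.86). After D + Q none was called. The study, with its test on read counts, named the partner Sdc4 among its upregulated TA genes. Here Sdc4 stood at 0.35 in TA (51.0 ± 32.9 against 28.6 ± 15.8 TPM, adjusted p = 0.999 in limma), with groups that overlapped. In heart the scavenging receptor Lrp1, which takes up Ccn2, had every D + Q heart below every vehicle heart (43.6 ± 4.28 against 59.9 ± 11.3 TPM, log2 fold change -0.48, adjusted p = 0.117 in limma), as did 5.57% of all genes.

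Immediate early genes and TGF-beta genes, which respond to stimuli that also induce Ccn1 and Ccn2, were mostly lower by values in D + Q hearts, without a call. For comparison, 50.5% of all genes had a negative value there, 5.57% lay fully below and 9.63% fully above. All 11 immediate early genes had a negative log2 fold change there, with a median of -0.65 and 4 without overlap (Egr1 at -1.55, Egr3 at -1.18, Junb at -0.75 and Ier3 at -0.53). Of the 14 TGF-beta ligands and responsive genes, 13 were negative, with a median of -0.43 and 5 without overlap, among them the ligand Tgfb2 at -0.71 and the collagen gene Col1a1 at -0.41 (22.2 ± 3.28 against 29.0 ± 1.95 TPM, adjusted p = 0.112 in limma). The 12 serum response genes went both ways, with 7 negative, a median of -0.066, 3 fully above and 3 fully below, among them Fhl2 at 0.61 and Flna, filamin A, at -0.39. In TA the medians were -0.45, -0.23 and -0.069, against -0.072 over all genes, with 0 called and 0 without overlap. Of all genes there, 66.4% were negative. These TA values come from the model with the surrogate variable. By mean TPM, each immediate early gene was higher in D + Q TA, for example Egr1 at 141 ± 206 against 79.8 ± 63.7. D + Q replicate 1 was the highest TA mouse for Egr1, at 448 TPM.

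Opposite-strand lncRNAs overlap exons of 4 members, and whether the quantification used strand is not given in the sources used here. Gm17501 shares 468 of 2032 exon bases with Ccn1, Gm15270 shares 1164 of 3187 with Ccn2, Gm56671 shares 724 of 2983 with Ankrd1 and Gm46514 shares 413 of 6081 with Ccn4. Gm15270 stood at 3.84 to 7.17 TPM in hearts and 0.482 to 2.41 in TA, and Gm17501 at 1.14 to 3.76 in all groups, well under the levels of Ccn2 and Ccn1. Gm56671 was at 0.445 TPM or less in all groups, well under Ankrd1. Gm46514 was not found by symbol among the genes of the series, so its level could not be set beside that of Ccn4.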

How the data were processed

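Total RNA from TA muscle and heart tissue was made into mRNA libraries. The paper names heart tissue and does not say which part of the heart gave the RNA. Per the labels, the authors trimmed reads with Trim Galore 0.6.10 and quantified them with Salmon 1.10.3 on GRCm39, and they deposited TPM for 56980 genes in 15 libraries. The annotation release is not given in the sources used here. Of the identifiers, 56236 were found in GENCODE M39, which supplied symbols and positions.

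TPM keeps no depth, so a count test could not be run and precision comes only from the spread between mice. A gene was kept at 0.5 TPM or more in 3 or more libraries, and log2(TPM + 0.5) was fitted in R 4.3.3 with limma 3.58.1 (lmFit, eBayes with a trend), so fold changes of low genes are understated. The TA model held 1 surrogate variable estimated in 5 rounds, the heart model labelled sex, and the tissue and interaction contrasts a fit of 4 group means with labelled sex. Calls needed a Benjamini-Hochberg adjusted p under 0.05 over all genes and a log2 fold change beyond 0.5 in either direction. The code was tested on simulated data. All 7 members were named, and from each list at most 4 genes per comparison, those with the smallest unadjusted p, or those whose groups did not overlap. For each member, the 3 genes with the highest correlation were named. The members and lists were chosen with earlier results of these data known. Replicate numbers are shared between groups, but the samples are different mice, and same-numbered mice did not deviate together (correlations from -0.30 to 0.04). The promoter of Ccn2 and 1 gene of the TGF-beta list are not reported here.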

Additional observations from a re-analysis of the deposited data

How the results depend on the processing

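Each comparison was repeated with other pseudocounts, without or with a stricter filter on low values, with median-of-ratios scaling, without the variance trend, with other covariates and without each replicate in turn. Of 749 values of members, 718 kept their sign and their side of the threshold, 26 turned their sign, 5 newly passed and 0 were lost, and the causes were not tested. In TA, Ccn5 was 0.041 with median-of-ratios scaling, Ccn1 was 0.049 without a covariate, and Ccn3 and Ccn4 were 0.27 and 0.0050 with labelled sex and with males only. In heart, Ccn3 and Ccn4 were 0.040 and 1.04 with the atrial level. In the difference of effects, Ccn4 was -0.079 without a covariate and Ccn1 was -0.031 with sex read from expression. Without a covariate, Ccn1 passed between the D + Q tissues (1.14, adjusted p = 0.0459 in limma).

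Leaving out 1 mouse, the TA values ranged from -0.50 to 0.028 for Ccn1, -0.54 to 0.021 for Ccn2, -0.46 to 0.27 for Ccn3, -0.24 to 0.085 for Ccn5, -0.12 to 0.62 for Ankrd1 and -0.070 to 0.11 for Amotl2. The positive ends of Ccn1, Ccn2, Ccn3 and Ankrd1 came without D + Q replicate 3. The difference of effects ranged from -0.32 to 0.55 for Ccn1 and -0.085 to 0.35 for Ccn4, and the D + Q tissue difference from -0.29 to 0.50 for Ccn5. The number of members called in heart ranged from 0 to 1, the 1 being Ccn5 without vehicle replicate 3.

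When replicate numbers replaced the covariate as a block, the members called were 0 in TA, 0 in heart, 5 and 4 between tissues and 0 for the difference of effects. The block added Ccn1 between the D + Q tissues (1.19, adjusted p = 0.0434 in limma) and gave Ccn1 in TA at 0.049 and the Ccn4 difference of effects at -0.095. The block changed no other call, and the numbers do not pair the mice.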
